A study of Xenopus laevis with 4 samples.

Results

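The fused chromosomes 9_10L and 9_10S of the frog Xenopus laevis are examined here through their 5-methylcytosine (m5C) sites in mRNA. Every row of the site lists whose chromosome is 9_10L or 9_10S was taken, which gave 6 of the 45 sites listed at stage 25 and 1884 of the 16233 sites listed at stage 0. At stage 0, 1052 of these sites were in 434 genes of 9_10L and 832 were in 342 genes of 9_10S. At stage 25, 3 sites were in 2 genes of 9_10L and 3 sites were in 3 genes of 9_10S. The lists come from RNA bisulfite sequencing of polyadenylated RNA from pools of wild-type X. laevis embryos at stage 25 and at stage 0, with 2 libraries per stage. Both libraries of a stage were combined into 1 list, so no value below has a spread between replicates. In the titles of the stage 25 libraries the prefix is XT instead of XL, although their organism label is X. laevis. In such pools, fewer cells of a type and less RNA per cell cannot be told apart.

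Bisulfite turns unmethylated cytosine into a base read as T and leaves m5C to be read as C, so the share of C reads at a position is its methylation level. In animal mRNA, m5C is written mainly by NSUN2, whose sites are often followed by G-rich sequence (the Type I sites of the study), and by NSUN6, whose sites lie in a CUCNA context (Type II). X. laevis is an allotetraploid that arose from a cross of a pair of frog species, and its chromosomes exist as a long L and a short S copy. Chromosome 9_10 is a fusion of the ancestral chromosomes 9 and 10 and is present in both subgenomes, and the L and S copies of a gene are called homeologs.

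Sequence after the methylated cytosine was at hand for 151 of the 1884 stage 0 sites (8.01%), 98 on 9_10L and 53 on 9_10S. These are sites at which the study compared levels with a second frog, so they are not a random sample of the sites on the pair. Some of them are shown because they are among the sites of highest level or coverage described below, are the highest site of a gene with many sites (pcnt.L, fn1.S), carry the Type II motif at a high level (nbeal1.L, rif1.S) or are also listed at stage 25. In each, the capital C is the methylated cytosine, the small letters are the 4 bases that follow it 5′ to 3′, and T stands for U.
cdc27.L: Cggag
trak2.L: Cagag
pcnt.L: Cagga
pld6.S: Cggct
fn1.S: Caggg
nbeal1.L: Ctcca
rif1.S: Ctcca
cldn6.1.L: Ctcca
cldn6.2.S: Ctcca
grn.L: Ctcca
The first 5 sites are followed by A or G and then by G, and the last 5 share the letters of the CUCNA context.

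In this subset, 43 different 5-base sequences occurred, and the most frequent was Ctcca with 28 sites, 19 on 9_10L and 9 on 9_10S. Next came Caggg with 12 sites. The median level at the 11 Cagag sites was 52.9%, and at the 11 Cggag sites it was 20.4%. Their levels overlapped widely, with 18.2% to 93.5% at Cagag and 11.3% to 95.8% at Cggag, and the difference was not tested. At least 2 of the 4 following bases were G at 104 sites, and none was G at 29 sites. The letters TCNA after the C, which is the Type II motif, were present at 19.4% of the sites on 9_10L and at 17.0% of those on 9_10S. Over all 1223 sites of the table, that share was 20.4%. These shares hold only for sites that the study compared with another frog. By the study's counts of Type I and Type II sites, the Type II share of the whole list is lower. The motif was searched directly after the called C on the strand of the gene, and every match on the pair read Ctcca. On 9_10L the median level was 21.3% at the 19 motif sites and 33.1% at the other 79 sites. On 9_10S the medians were 42.0% at the 9 motif sites and 40.3% at the other 44. Those 9 sites ranged from 11.1% to 78.2%, too few and too spread to show a difference between the chromosomes. Over the pair the medians were 26.9% at motif sites and 34.8% at the others. Over all 1223 sites they were 21.0% and 28.5%. The range within the motif class was wide. The Ctcca sites of nbeal1.L at 78986161 of 9_10L and of rif1.S at 53110737 of 9_10S had levels of 91.8% and 78.2%, while the lowest Ctcca level on the pair was 10.04%.

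The first question was whether the 2 chromosomes of the pair carry similar numbers of sites. At stage 0, 9_10L had 1.26 times as many listed sites as 9_10S and 1.27 times as many genes with a site. Among the 9 chromosome pairs, only pair 2 had a lower ratio of L to S sites (1.19), and the other 7 ranged from 1.36 for pair 4 to 1.77 for pair 1. A site list gives no test of such a ratio, since sites of a gene share its reads and each stage is 1 list. Sites per gene were alike, with 2.42 on 9_10L and 2.43 on 9_10S, and the other 16 assembled chromosomes lay between 2.01 and 2.42. A single site was listed in 186 genes of 9_10L (42.9%) and in 139 genes of 9_10S (40.6%). At the other end, 5 genes of 9_10L and 3 genes of 9_10S had 10 or more sites.

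**Figure D1:**
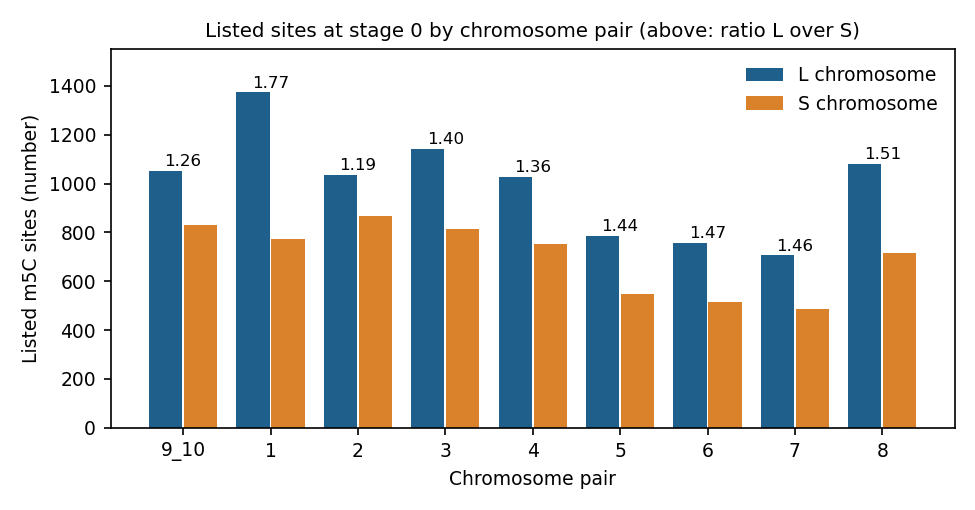
Number of listed m5C sites at stage 0 on the L (blue) and the S (orange) chromosome of each pair, with the ratio of L to S above the bars. The 9_10 pair has 1052 and 832 sites and the second lowest ratio, 1.26, after pair 2 with 1.19.

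Listed sites reached 117.4 Mb along 9_10L and 104.3 Mb along 9_10S. Per Mb of this span there were 8.96 sites on 9_10L and 7.98 on 9_10S. The other chromosomes ranged from 4.03 (6S) to 9.03 (8L) with a median of 5.68 per Mb. Among the assembled chromosomes, 9_10L and 9_10S were thus exceeded by 8L alone. Genes with a listed site numbered 434 over 117.4 Mb of 9_10L and 342 over 104.3 Mb of 9_10S. On 8L they numbered 447 over 119.9 Mb, and on 6S 231 over 127.7 Mb. Sites per Mb thus also reflect the number of genes and are not a measure of methylation per gene. The number of sites was not even along the chromosomes. The first 10 Mb held 168 sites on 9_10L (15.97%) and 171 sites on 9_10S (20.6%), in each case the highest number of any 10 Mb window of that chromosome. These windows also held the most genes with a site, 69 on 9_10L and 65 on 9_10S, with 2.43 and 2.63 sites per gene. The last windows but 1 also held many sites, 134 between 100 and 110 Mb of 9_10L and 113 between 90 and 100 Mb of 9_10S. So did the windows from 30 to 40 Mb, with 122 sites on 9_10L and 98 on 9_10S. The last windows held 102 sites on 9_10L and 52 on 9_10S. They are shorter, since listed sites end at 117.4 Mb and 104.3 Mb, so their counts are not comparable with those of full windows. The lowest numbers were 34 sites in each of the windows 60 to 70 Mb and 90 to 100 Mb of 9_10L, and 30 sites between 80 and 90 Mb of 9_10S. These windows had few genes with a site, 16 and 22 on 9_10L and 15 on 9_10S.

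**Figure D2:**
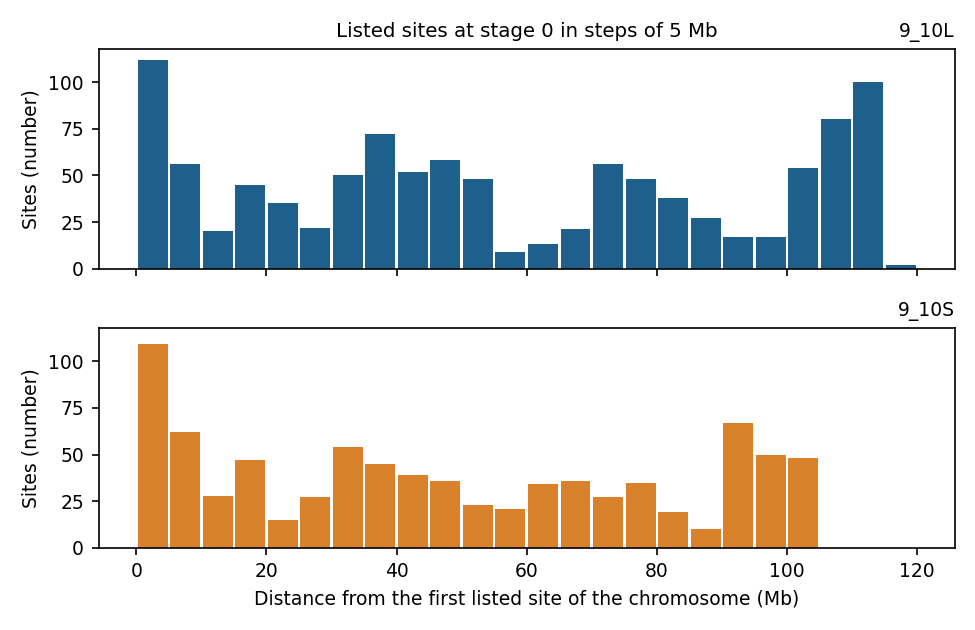
Number of listed sites at stage 0 in steps of 5 Mb, against the distance in Mb from the first listed site, on 9_10L (top, blue) and 9_10S (bottom, orange). Both chromosomes have their highest bar at the start and a rise toward the end. A rise between them peaks at 35 to 40 Mb on 9_10L (72 sites) and at 30 to 35 Mb on 9_10S (54 sites). Positions of the chromosomes are not aligned to each other.

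Density and level did not go together in every window. In the first 10 Mb, the median level was 19.9% on 9_10L and 20.8% on 9_10S, and 11.3% and 12.9% of the sites had a level of at least 50%. The highest such shares were 24.6% of 122 sites between 30 and 40 Mb of 9_10L and 25.0% of 52 sites beyond 100 Mb of 9_10S. Sites per gene were highest beyond 110 Mb of 9_10L, with 102 sites in 29 genes (3.52 per gene), a window that holds the gene with the most sites of the pair. Within genes, the median distance between neighbouring sites was 1715 nt on 9_10L, 2072 nt on 9_10S and 2715 nt on the other chromosomes, introns included. A neighbour within 50 nt was present at 120 sites of 9_10L (11.4%), 107 sites of 9_10S (12.9%) and 11.20% of the sites elsewhere.

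Methylation levels of the 2 chromosomes were nearly the same at stage 0. The median level was 21.4% on 9_10L and 21.4% on 9_10S, a difference of 0.04 percentage points, and it was 21.0% on the other chromosomes. In the 8 other pairs, L minus S differed by between -1.12 and 0.41 points. The levels between the quartiles spanned 13.9% to 39.9% on 9_10L and 14.3% to 37.2% on 9_10S, which is far wider than the difference. Levels under 20% were seen at 496 sites of 9_10L (47.1%) and 378 sites of 9_10S (45.4%). Levels of at least 50% were seen at 184 sites of 9_10L (17.5%) and 132 sites of 9_10S (15.9%), against 16.2% on the other chromosomes. At 90% or above were 29 sites of 9_10L (2.76%) and 12 sites of 9_10S (1.44%), with 1.06% to 2.74% on each of the others.

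**Figure D3:**
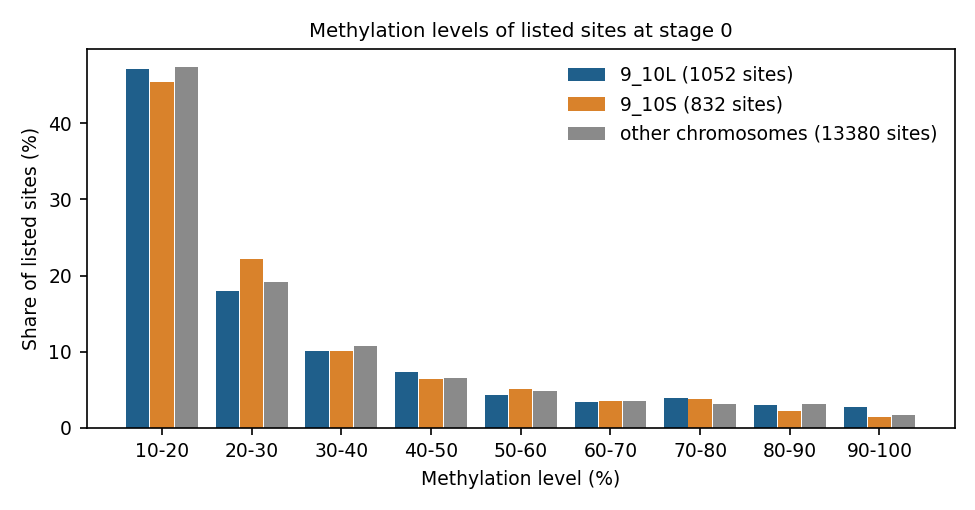
Share of listed stage 0 sites (%) in steps of 10 percentage points of methylation level, for 9_10L (blue, 1052 sites), 9_10S (orange, 832) and the other 16 chromosomes together (grey, 13380). All groups have their highest bar at 10 to 20%, and 47.1% of the sites on 9_10L and 45.4% of those on 9_10S fall there.

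Coverage was comparable as well, with a median of 159 reads per site on 9_10L and 149 on 9_10S and a range of 20 to 42165 and 20 to 33987. A level at such depth has a 95% Wilson interval that reached a median of 6.01 points to either side on 9_10L and 6.28 on 9_10S. The intervals in this text cover counting error only. Sites with 20 to 49 reads had higher median levels (26.1% on 9_10L, 23.7% on 9_10S and 23.9% elsewhere) than sites with at least 500 reads (21.3%, 22.3% and 20.5%). No listed stage 0 site had fewer than 4 C reads, so the lowest levels are missing among sites of few reads. The medians of these coverage classes are therefore not directly comparable.

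The 5 genes with the most sites on 9_10L encode proteins of the centrosome, of RNA export and silencing, and of DNA replication. Site numbers per gene were not scaled to transcript length or to covered cytosines on either chromosome, so they do not compare genes in density. LOC108701695, which RefSeq names wdr90.L after a centriole protein, had 19 sites between 112724219 and 112744385 with levels of 10.1% to 92.0% (median 24.2%). Of these sites, 2 stood out, at 112724509 with 263 C reads of 286 (92.0%) and at 112727330 with 148 of 163 (90.8%). pcnt.L, which encodes the centrosome scaffold pericentrin, had 13 sites at 10.3% to 93.3%. mcm3ap.L, whose product acts in mRNA export, had 11 sites at 11.6% to 81.2%. The microRNA silencing gene LOC108701643 (tnrc6a.L in RefSeq) also had 11 sites, at 10.6% to 60.9%. atad5.L, whose product unloads the PCNA clamp from DNA, had 10 sites at 12.3% to 90%. Each of these genes joined many sites of low level, with medians of 15.9% to 24.2%, to between 1 and 3 sites of at least 50%.

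On 9_10S, fn1.S, the gene of the extracellular matrix protein fibronectin, had the most sites. Its 13 sites lay between 67380105 and 67419498 and had levels of 10.7% to 78.9% (median 19.5%) at 156 to 1514 reads. The 10 sites of mprip.S, which encodes a partner of myosin phosphatase, reached only 35.7%. ube2o.S, a ubiquitin-conjugating enzyme gene, had 10 sites at 10.4% to 82.9%. tnrc6a.S had 9 sites at 10.3% to 37.7%, and the cell polarity gene llgl1.S had 8 at 10.5% to 49.1%. tbc1d10b.S also had 8 sites, with levels up to 88.5%. Genes of many sites on 9_10S thus held both patterns, with and without a site above 50%.

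Sites that were methylated in nearly all reads were ranked by the lower bound of their interval. On 9_10L the first was in ergic3.L, a gene of traffic between the endoplasmic reticulum and the Golgi, with 240 C reads of 246 at 34015567 (97.6%, 95% interval 94.8% to 98.9%). The site of tmem8a.L at 112548247 was read as C in all 69 reads, which allows a level down to 94.7%. The anaphase-promoting complex gene cdc27.L had 389 of 406 at 6040970 (95.8%), and trak2.L, whose product links mitochondria to motors, had 504 of 539 at 77890273 (93.5%). The narrowest interval of these sites was on 9_10S, in the actin nucleator gene spire1.S, with 2559 of 2701 reads at 12648094 (94.7%, 93.8% to 95.5%). The proteasome activator gene psme3.S had 440 of 468 at 25366233 (94.0%) and LOC108702842 had 434 of 467 (92.9%). LOC108702589 had 56 of 58 (96.6%) and LOC108702588, the Rac exchange factor gene prex1.S in RefSeq, had 105 of 112 (93.8%).

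The most covered sites had levels from 12.5% to 80.4%. On 9_10L the most covered site was in snrpb.L, the gene of an Sm core protein of spliceosomal RNPs, with 42165 reads at 31130038 and a level of 14.04% (13.7% to 14.4%). Next were LOC108701308, a long noncoding RNA gene in RefSeq, with 35809 reads (16.04%), the translation initiation gene eif1.L with 24918 reads (14.2%) and the tight junction gene cldn6.1.L with 24214 reads (21.3%). LOC108701628, the mitotic kinase gene plk1.L in RefSeq, had 16217 reads at the most covered of its 4 sites (12.5%). On 9_10S the order was cldn6.1.S with 33987 reads (28.0%), hn1.S with 27708 (17.1%), snrpb.S with 25602 (80.4%), cldn6.2.S with 22742 (58.7%) and plk1.S with 11157 (16.7%). Most of these levels lay below 30%, and snrpb.S and cldn6.2.S lay above 50%.

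The next question was how far both homeologs of a gene carry sites. By gene name without its suffix, 511 pairs had a site in at least 1 copy. With the copy taken from the suffix where it matched the chromosome, 112 (21.9%) had sites in both copies, 251 in the L copy only and 148 in the S copy only. Some genes carry the other suffix, such as arl5c.L with sites on 9_10S, and with the copy taken from the chromosome the numbers were 116 in both, 249 in L only and 160 in S only. The share with both was 17.8% to 24.1% in the other chromosome pairs. Naming in RefSeq differed between these groups. The other copy had a name in RefSeq for 103 of the 251 L-only pairs (41.0%) but for 105 of the 148 S-only pairs (70.9%). Among the 326 pairs of which RefSeq names both copies, with LOC identifiers replaced by their RefSeq symbols, 118 (36.2%) had sites in both, 105 in L only and 103 in S only. The ratio of L-only to S-only pairs was then 1.02, and it ranged from 1.07 to 1.34 in the other chromosome pairs. With the copy taken from the chromosome, these pairs numbered 123 in both, 102 in L only and 108 in S only, a ratio of 0.94 against 1.07 to 1.35 elsewhere, so which copy was listed alone more often depends on the naming. A copy without a listed site can be unmethylated, below the minimum level or too little covered, and its gene can also be absent.

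**Figure D4:**
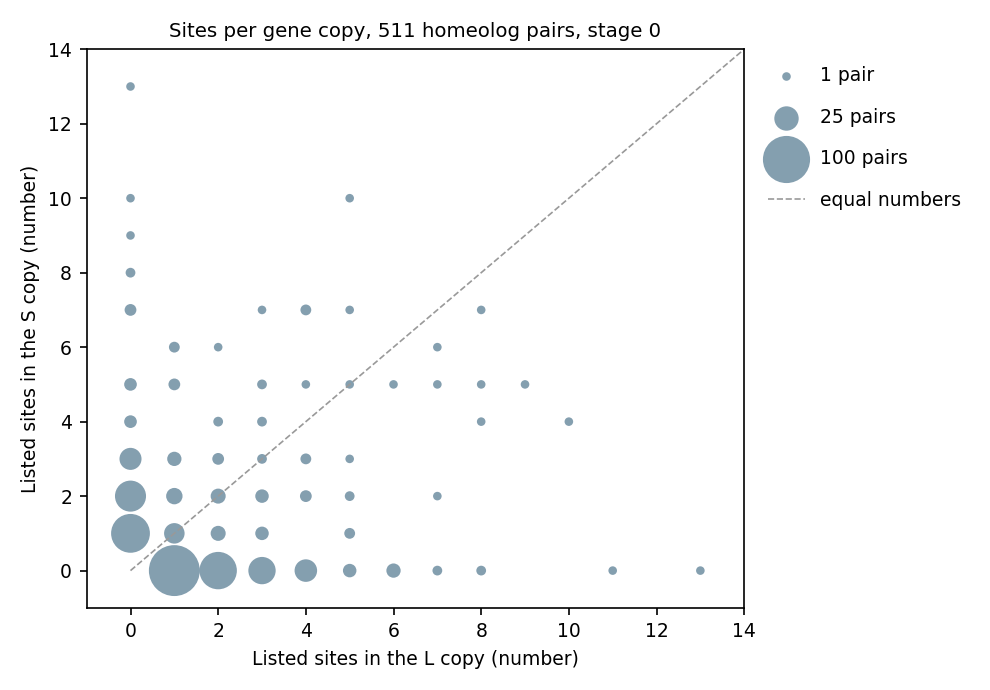
Number of listed stage 0 sites in the L copy (horizontal) and the S copy (vertical) of 511 homeolog pairs of chromosome 9_10. Larger circles hold more pairs, and the dashed line marks equal numbers. Pairs at 0 on an axis have sites in 1 copy only (251 in L, 148 in S), and the other 112 have sites in both.

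Where both copies had sites, the subgenomes had similar numbers. The L copies of the 112 pairs held 303 sites and the S copies 313. L had more sites in 42 pairs, S had more in 42, and 28 had equal numbers. With RefSeq symbols, L had more in 53 of 136 pairs and S had more in 49. The highest level of the copy was higher in L in 53 pairs and higher in S in 59, with medians of 39.9% for L and 37.7% for S. Within a pair the highest levels were often far apart. Their median absolute difference was 23.3 percentage points, and it reached at least 50 points in 19 pairs, 10 with L higher and 9 with S higher. These highest levels are taken over numbers of sites that often differ between the copies. The cytosines of the copies were not matched, so the differences are not those of the same site. Across the 112 pairs, Spearman's rho between the copies was 0.32 for the number of sites, 0.09 for the highest level and 0.56 for median coverage. Copies of a gene are similar but not identical in sequence and may share reads, and pairs are not replicates, so these are descriptions without a test. The order of the pairs along the chromosomes was nearly identical (rho 0.9998 of median positions), and 107 pairs lay on the same strand of both chromosomes. The other 5, actg1, e4f1, grn, notum and tpx2, lay on opposite strands. RefSeq does not name grn.S. By median site position, cwc25 lies before grn on 9_10L (2613210 and 5057836) but after it on 9_10S (2302353 and 2206295). Whether grn.S is the homeolog of grn.L was not tested.

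The 5 pairs with the most sites in both copies, ties ordered by summed coverage, were mprip, agap1, atad5, prpf6 and fzd7. mprip had 5 sites in L and 10 in S, and the highest levels were alike at 35.1% and 35.7%. agap1, a gene of an Arf GTPase-activating protein, had 8 and 7 sites with highest levels of 89.6% in L and 67.3% in S. atad5 had 10 sites in L and 4 in S, and its highest levels differed most, with 90% in L and 31.4% in S. The splicing factor gene prpf6 had 9 and 5 sites with highest levels of 73.1% in L and 73.6% in S. The Wnt receptor gene fzd7 had 8 and 5 sites with highest levels of 87.5% in L and 93.9% in S. myo10.2 had as many sites as fzd7 in sum, 7 in L and 6 in S, with highest levels of 86.3% in L and 40.5% in S.

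The arrangement of sites in fzd7 was the same in both copies at 3 positions. In fzd7.L, whose sites lie on the minus strand, the positions 79370907, 79370401 and 79370259 had levels of 11.1%, 87.5% and 84.4%. In fzd7.S, also on the minus strand, the positions 72104193, 72103687 and 72103545 had 18.8%, 90% and 93.9%. The distances were 506 nt and then 142 nt in each copy. The order of levels was thus the same, with a low site before a pair of high sites. Another equal distance, 507 nt, joined sites that did not correspond in this way. Coverage was 544 to 858 reads at these L sites and 49 to 64 reads at these S sites. Of 54 pairs with at least 2 sites in each copy, fzd7 and actg1 were those that had any distance between 3 and 2000 nt in common. In actg1, the gamma actin gene, sites 29 nt apart had 13.4% and 11.1% in L and 32.5% and 17.5% in S. The search for equal distances was made after the values of fzd7 had been seen, no alignment of the copies was used, and a single insertion or deletion between sites would hide a match.

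Larger differences of level between copies were also found, and the following examples were chosen for their difference. The single listed sites of snrpb.L and snrpb.S had 14.04% of 42165 reads and 80.4% of 25602 reads. smarcd2, which encodes a subunit of SWI/SNF chromatin remodelers, reached 12.7% in L and 87.4% in S, and the translation regulator gene bzw1 reached 14.3% in L and 76.5% in S. The order was turned in cwc25, a splicing factor gene, with 91.6% in L and 25.0% in S, and in ergic3 with 97.6% in L and 13.8% in S, where the S site had 116 reads. Whether such sites are the same cytosine in both copies was not tested.

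By the deposited names, the largest differences in the number of sites were those of fn1 (0 in L, 13 in S), pcnt (13 and 0), mcm3ap (11 and 0), ube2o (0 and 10) and tnrc6a (0 and 9). For the first 4 of them RefSeq names 1 copy only. For tnrc6a the zero follows from naming, because LOC108701643 with its 11 sites is tnrc6a.L in RefSeq. With RefSeq symbols the largest difference was that of wdr90 (LOC108701695), with 19 sites in L and 0 in S, and RefSeq names its L copy only. Where RefSeq names both copies, the largest differences were smaller. prkar1b, a protein kinase A subunit gene, had 0 sites in L and 7 in S, and so had the tubulin glutamylase gene ttll4. On 9_10L, prkar1a.S had 2 sites from 42927089 to 42931168. By median site position, kpna2.L lies at 43815884, and on 9_10S prkar1b.S lies at 39167442 and kpna2.S at 39976736. Whether prkar1a.S is the L copy of prkar1b under another name was not tested. ralgapb, whose product is part of a Ral GTPase-activating complex, had 7 in L and 0 in S, as had ern1, the unfolded protein response sensor gene listed as LOC108701211. esyt3, an extended synaptotagmin gene, had 6 in L and 0 in S, and so had nfe2l1, a transcription factor gene whose highest level was 90.9%. The sites of esyt3.L (10.01% to 15.4%) and ern1 (10.7% to 19.1%) were all near the minimum level of a listed site.

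Subgenome suffix and chromosome did not always match, which is why the pair counts above are given both ways. On 9_10S, 16 genes with 35 sites carried the suffix .L, among them rab40c.L with 5 sites and kpnb1.L, snx11.L and xkr7.L with 4 each. On 9_10L, 2 genes with 3 sites carried the suffix .S, among them prkar1a.S with 2 sites.

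Groups of genes by function were spread over both chromosomes. RNA processing genes held 61 sites in 25 genes, 26 on 9_10L and 35 on 9_10S, which was 3.24% of the sites of the pair against 2.13% over the whole list. prpf6.L with 9 sites, prpf6.S with 5 and rbm39.L with 5 led this group. Cell cycle and chromosome genes held 65 sites in 20 genes, 43 on 9_10L and 22 on 9_10S (3.45% against 2.17%), led by mcm3ap.L with 11, the topoisomerase gene top2a.L with 8 and cdc27.S with 7. mcm3ap.L is in this group by the start of its symbol alone, and without it 54 sites remained (2.87% against 2.10% over the whole list). Chromatin and transcription genes held 57 sites (3.03% against 3.31%), and the zinc finger gene znf281 had 4 sites in L and 7 in S. Vesicle traffic genes held 51 sites (2.71% against 2.36%), with rab40c.L first.

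Ubiquitin and proteasome genes held 13 sites on 9_10L and 29 on 9_10S (2.23% of the pair against 2.73% of the whole list), of which 10 were in ube2o.S, and psme3 had 4 in L and 3 in S. Translation genes held 18 sites on 9_10L and 8 on 9_10S (1.38% against 1.26%). Their median level over the pair was 15.7%, the lowest of the 8 groups, against 17.6% for translation genes of the whole list. Among them eif3b.L, which encodes a subunit of initiation factor 3, still reached 90.7%, and eif2ak1.L, an eIF2 kinase gene, 59.0%. Solute carriers held 22 sites (1.17% against 1.56%), 15 of them on 9_10L. Genes named tmem held 15 sites (0.80% against 1.14%), 13 of them on 9_10L. The groups were formed by the start of the gene symbol, so members besides mcm3ap.L may also lack the function named, such as cdk5rap1.L and slc9a3r1. They were not tested.

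The last question was which sites of the pair were listed at stage 25. A level is that of the mRNA present at its stage. Loss of methylation and replacement of transcripts between the stages therefore cannot be told apart. Of the 6 sites listed then, 4 were also listed at stage 0. By Fisher's exact test of C and T reads (two-sided, Benjamini-Hochberg adjusted over all 36 sites that the stages share), 3 of the 4 were lower at stage 25 than at stage 0. Over all 36 shared sites, 25 (69.4%) were lower, so the count on the pair was close to that of the whole list. None of the 36 was higher, also at an unadjusted p under 0.05. The median level of the 4 sites was 12.2% at stage 25 and 47.9% at stage 0, against 18.9% and 62.8% for all 36.

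The largest difference was at 99476193 of 9_10S in pld6.S, which encodes a mitochondrial surface protein of the piRNA pathway. The level was 24.0% at stage 25 (24 of 100 reads, 95% interval 16.7% to 33.2%) and 93.4% at stage 0 (85 of 91 reads, 86.4% to 96.9%), with an adjusted p of 6.53e-24 by Fisher's exact test. A second site of pld6.S, at 99476244, had 49.2% at stage 0 and was not listed at stage 25. At 15084454 of 9_10S in LOC398702, the level was 13.2% at stage 25 (58 of 439 reads, 10.4% to 16.7%) and 70.6% at stage 0 (24 of 34 reads, 53.8% to 83.2%), with an adjusted p of 1.7e-12 by Fisher's exact test. At these sites the intervals of the stages did not overlap. Coverage was not scaled to library totals, and stage 25 had 12.9 times the reads of stage 0 at the LOC398702 site and 1.10 times at the pld6.S site.

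Both other shared sites were in grn.L, the gene of the growth factor precursor progranulin. At 5057836 of 9_10L the level was 10.2% at stage 25 (6 of 59 reads, 4.74% to 20.5%) and 25.3% at stage 0 (74 of 293 reads, 20.6% to 30.5%), with an adjusted p of 0.015 by Fisher's exact test. At 5047424 of 9_10L, in a Ctcca sequence, it was 11.1% at stage 25 (9 of 81 reads, 5.96% to 19.8%) and 15.7% at stage 0 (50 of 319 reads, 12.1% to 20.1%). This difference did not pass the test (adjusted p = 0.442, Fisher's exact test), and the intervals of both stages overlap. Coverage at stage 25 was 0.20 times that of stage 0 at 5057836 and 0.25 times at 5047424. grn.L had 5 sites at stage 0, at 15.7% to 25.3%. grn.S, paired with grn.L by name alone, also had 5 stage 0 sites, at 14.3% to 42.4%. Of these, 3 were neighbouring cytosines at 2206295 to 2206297, and none of the grn.S sites was listed at stage 25.

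**Figure D5:**
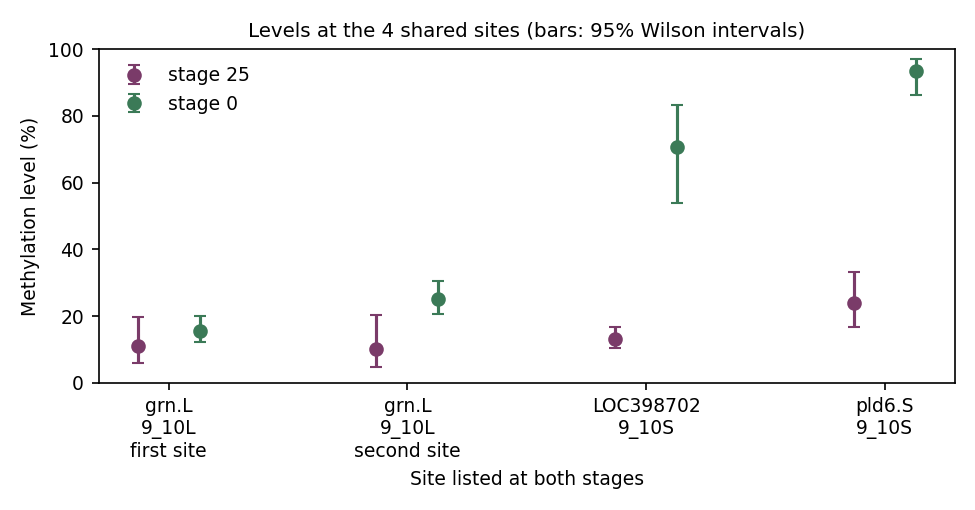
Methylation level (%) at the 4 sites of 9_10L and 9_10S listed at both stages, stage 25 (purple) left of stage 0 (green), with 95% Wilson intervals. The points of LOC398702 and pld6.S lie at 13.2% and 24.0% at stage 25, far below 70.6% and 93.4% at stage 0, and the intervals of both stages overlap only at the first grn.L site.

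The remaining 2 stage 25 sites were not in the stage 0 list, although their genes had another site there. c2orf47.L had 36 C reads of 213 at 78614087 of 9_10L at stage 25 (16.9%, 12.5% to 22.5%), and its stage 0 site at 78619316 had 38 of 105 (36.2%). ndrg4.S had 10 of 41 at 32154964 of 9_10S at stage 25 (24.4%, 13.8% to 39.3%), and its stage 0 site at 32162753 had 6 of 35 (17.1%). The homeolog ndrg4.L had 1 stage 0 site with 12.4% of 356 reads. The reads at these positions at the stage where they are not listed are not in the lists, so no change can be given for them.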

How the data were processed

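Per the labels and the methods, about 200 embryos per stage gave the RNA, and the authors demultiplexed with bcl2fastq 2.17, trimmed with cutadapt and Trimmomatic and mapped uniquely to the converted v9.2 genome with HISAT2 2.10 (SAMtools is also named). The reporting summary of the study writes the HISAT2 version differently from the labels. Remaining and multiple-mapped reads went to the converted transcriptome with Bowtie2. The sources used here do not give how reads that fit both homeologs were assigned. The replicates are named technical in the main text of the study and biological in a legend.

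The deposited lists hold, per called site, coverage as counts of C and T reads, the level as a fraction (given here in percent) and the authors' combined p-value of the call. The smallest coverage was 20 reads at stage 0 and 21 at stage 25, the smallest level was 10.0%, the largest call p-value was 0.000819, and the fewest C reads were 4 at stage 0 and 5 at stage 25. Coverage times level was whole within 0.0001 at all 45 and 16233 sites. A cytosine not listed may be unmethylated, below a minimum or not covered. Sites total 11064 reads at stage 25 and 8227250 at stage 0; library totals were not used here.

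Samples were grouped by stage label. Positions are as deposited, on v9.2, and the sources used here do not say if counting starts at 0 or 1, so each may be off by 1 nt. Exon or UTR location was not analysed here. RefSeq (Xenopus_laevis_v10.1) served for names only: 713 of 776 gene names matched, and 65 of 120 LOC identifiers were renamed. Homeologs were paired by name. Named genes were, per chromosome, the 5 with the most sites, the 5 sites (1 per gene) ranked first by the lower 95% Wilson bound and the 5 of highest coverage; all stage 25 sites; the 5 pairs with the most sites and the 5 with the largest difference; and up to 3 genes per functional list. Some genes that these rules select are not reported here. Members, lists and rules were chosen with earlier results of these data known. Fisher's exact test on pooled reads covers counting error, not replicate spread, and PCR copies were not removed by molecular identifiers. The test was also run on simulated reads drawn independently at the observed coverage. That simulation held no replicate spread, PCR copies or reads shared between homeologs, so it does not bear on them. Python 3.11.15, pandas 2.3.3, scipy 1.17.1, numpy 2.4.6 and matplotlib 3.10.9 were used. Alternatives were other minimum coverages and levels, suffixed genes alone, and, added after seeing the data, RefSeq names for pairs, the copy taken from the chromosome, and cell cycle genes without mcm3ap.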

Additional observations from a re-analysis of the deposited data

How the results depend on the processing

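The ratio of L to S sites stayed between 1.22 and 1.36 under every alternative tried. For the sites called between the stages, the alternatives only left sites out, so the direction at a site could not change. With a coverage of at least 100 reads, 676 sites of 9_10L and 512 of 9_10S were left, in 308 and 222 genes, with 71 pairs that had sites in both copies. With a level of at least 20%, 556 and 454 sites and 69 such pairs were left, and the median of 9_10L was 3.31 points above that of 9_10S. With a level of at least 30%, 367 sites in 236 genes and 269 sites in 181 genes were left, with 46 pairs in both copies, 151 in L only and 93 in S only, and the median of 9_10L was 1.02 points above. Under the coverage minimums and with suffixed genes alone, the median of 9_10L was 0.10 to 1.04 points below, so its sign depends on the setting. Restricting pairs to those with both names in RefSeq, chosen after seeing the data, left 105 L-only pairs against 103 S-only pairs. With the copy also taken from the chromosome there were 102 against 108, and only then did the order of L-only and S-only pairs turn. With at least 50 reads at both stages, 2 of the sites lower at stage 25 were left, and with at least 100 reads 0, because no shared site of the pair has that coverage. No paired analysis was possible because each stage has 1 combined list without replicate columns, and leaving out a replicate could not be run for the same reason. At 20 to 49 reads the counting error of a level is widest, and the spread between replicates is unknown for every value.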
